A study of Bos taurus with 36 samples.

Results

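Ribosome biogenesis and nucleolar factors were followed in the liver of dairy cows before and after lipopolysaccharide (LPS), the cell wall component of Gram-negative bacteria, was put into the udder. The members were 57 gene symbols of this pathway, and every probe set whose only annotated gene is one of them was taken. Of these symbols, 48 were found, on 69 of the 24128 probe sets and among 9155 genes with a probe set of their own. The symbols NOP58, UTP14A, PWP2, RIOK1, BOP1, WDR12, RRS1, NIP7 and NPM1 were not matched. The 8 cows were Holstein-Friesian, free of mastitis and in their first lactation, which had begun with calving 9 to 12 weeks earlier. At time 0 each cow received 200 µg of E. coli LPS (0111:B4) in the right front gland of the udder, and the left front gland received 10 ml of saline. Liver biopsies were put on the Affymetrix Bovine Genome Array, with 1 biopsy on each of 36 arrays: all 8 cows at -22, 9 and 48 h, and cows 1, 3, 7 and 8 also at 3, 6 and 12 h. Every cow was treated, so hour after LPS and time of day cannot be told apart in these arrays. The number of earlier biopsies grew with the hour within a cow and differed between the 2 sets of 4 cows at 9 and 48 h.

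A ribosome is built in the nucleolus, where RNA polymerase I transcribes a long precursor rRNA. Small nucleolar ribonucleoproteins (snoRNPs) guide the modification of that precursor, box C/D particles by methylation of the ribose and box H/ACA particles by conversion of uridine to pseudouridine. The small subunit processome folds and cuts the precursor of the 40S subunit, further factors mature the 40S particle up to its export, and another set assembles the 60S subunit. The liver is a major protein-secreting organ, and the acute phase response is known for a large change in the proteins it makes.

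The deposited values are on a log2 scale, run from 0.686 to 16.4 over all arrays, and were compared with limma with 1 mean per hour. Unless said otherwise, a change is the difference of log2 values against -22 h with its standard error (SE), and rose or fell means that p, adjusted by Benjamini-Hochberg for every probe set on the array, was below 0.05. A gene was read through its brightest probe set. The arrays measure RNA, and no protein was measured on them. The comparisons with -22 h share the same 8 arrays of that hour. Of 12 measured hepatocyte markers none had a mean under 5 at every hour, and their mean was 14.0 to 14.3 at -22 h and 13.5 to 13.9 at 9 h. At 9 h 8 of the 12 fell, 4 of them at least 2-fold, and the fibrinogen genes FGB and FGG rose. Markers of other cells moved with the hour: the mean of 9 neutrophil markers was 3.61 to 4.00 at -22 h and 5.73 to 7.12 at 9 h, with MPO, MMP9, ITGAM and CATHL1 under 5 at every hour, and 6 of the 9 rose at 9 h. Of 10 Kupffer cell markers 6 fell at 9 h, with a mean of 8.48 to 9.41 at -22 h and 7.86 to 8.96 at 9 h, and of 9 endothelial markers 6 fell and 1 rose, with a mean of 5.41 to 6.22 at -22 h and 4.98 to 5.32 at 9 h. The part of these shifts in the results was not tested, and in whole biopsies fewer cells of a type and less RNA per cell cannot be told apart. The -22 h array of cow 7 had a BioB spike-in signal of 11.1 against 8.01 to 8.92 in the other cows. The mean of the members was highest in cow 1 at -22 h and in cow 2 at 48 h.

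The mean log2 value of the 48 genes was 7.14 ± 0.19 (SD, n = 8) at -22 h, 7.31 ± 0.10 (n = 4) at 3 h, 8.91 ± 0.12 (n = 4) at 6 h, 9.43 ± 0.09 (n = 8) at 9 h, 8.99 ± 0.16 (n = 4) at 12 h and 6.83 ± 0.14 (n = 8) at 48 h. The arrays of 6, 9 and 12 h lay between 8.76 and 9.55, above every array of -22, 3 and 48 h, which lay between 6.63 and 7.49. In the individual cows this mean changed by 1.81 to 2.55 at 9 h and by -0.70 to 0.08 at 48 h, where cow 2 was the one cow above its own -22 h value. The mean over all genes stayed between 6.46 and 6.64 on every array, which the normalization by quantiles largely fixes in advance.

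**Figure D1:**
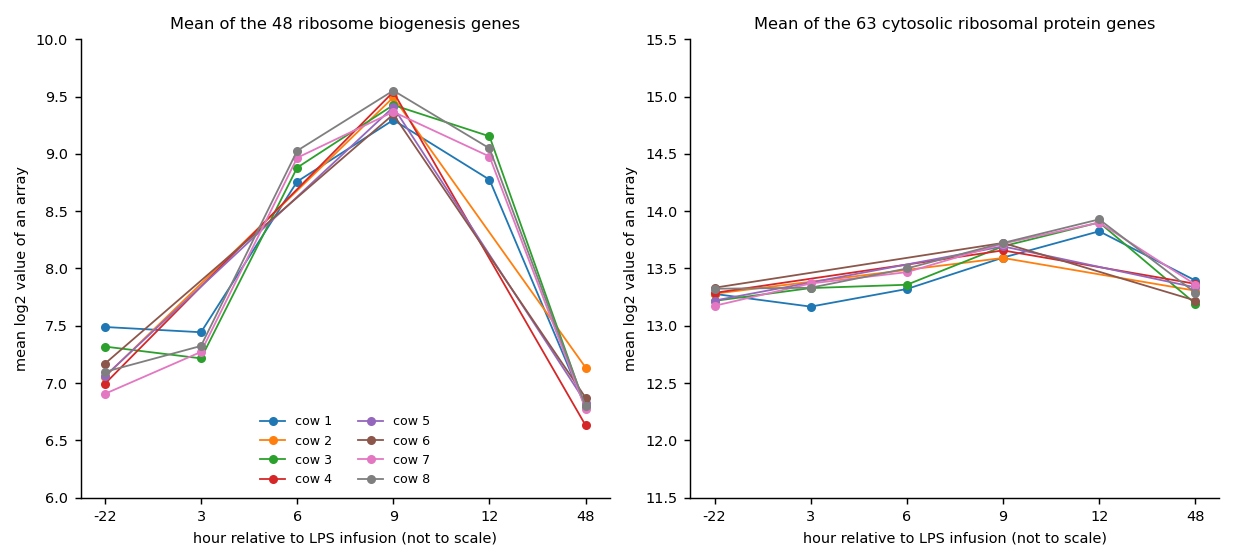
Mean log2 value of each array over the 48 ribosome biogenesis genes (left) and over 63 cytosolic ribosomal protein genes (right) by hour, with 1 line per cow and axes of equal range. The biogenesis genes run from 6.91 to 7.49 at -22 h to 9.30 to 9.55 at 9 h and back to 6.63 to 7.13 at 48 h. The ribosomal protein genes stay between 13.2 and 13.9.

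Nearly all of the 48 genes switched together between 3 and 6 h. At 3 h 3 of the 48 genes rose and none fell, beside 4.47% of all 9155 genes that rose, and the median change was 0.12. At 6 h 45 genes rose (26% of all genes) and 1 fell (29.3% of all genes), with a median of 1.83. All 48 rose at 9 h (36.6% of all genes), with a median of 2.24 and a range of 0.82 to 4.06, and all 48 rose at 12 h (30.9% of all genes), with a median of 1.87. The median over all genes was -0.02 at 3 h, 0.02 at 6 h, 0.04 at 9 h and 0.02 at 12 h.

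At 9 h 44 genes were at least 2-fold higher, beside 15.7% of all genes, and the exceptions were DDX52, IMP3, IMP4 and NOP14. The rise passed the threshold at each of 6, 9 and 12 h in 45 genes (17.3% of all genes). In 43 genes every array of 6 h lay above every array of -22 h (19.1% of all genes). The same held at 9 h for 47 genes, all but IMP3 (20.1% of all genes), and at 12 h for 46, all but RRP9 and UTP18 (22.2% of all genes). The neutrophil, hepatocyte, Kupffer cell and endothelial markers moved over these same hours, as given above.

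**Figure D2:**
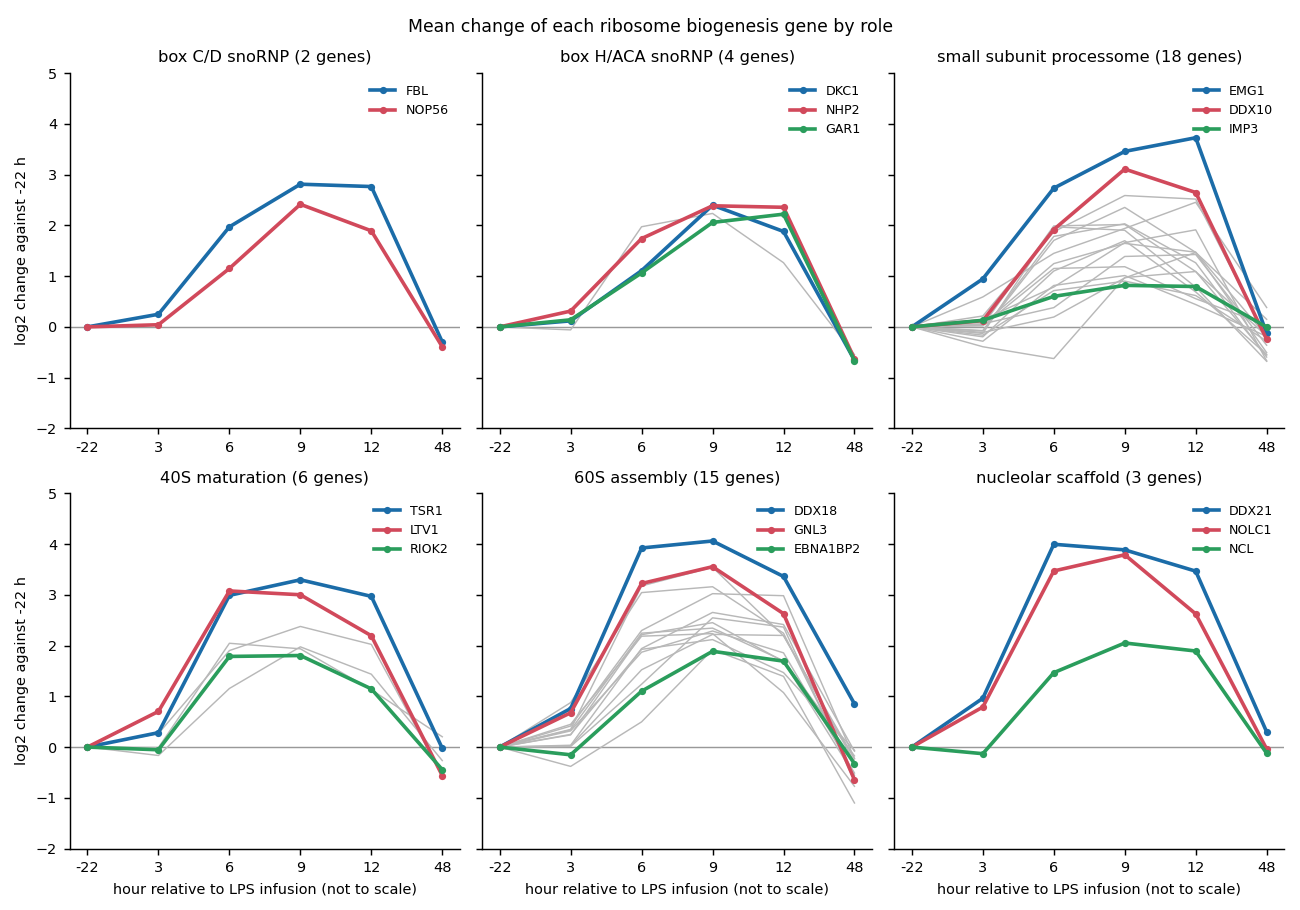
Mean log2 change of each of the 48 genes against -22 h (y axis) at each hour (x axis, not to scale), with 1 panel per role, grey lines for single genes and coloured lines for the genes of the legend. The lines lie between -0.39 and 0.96 at 3 h, are highest at 6 to 12 h and end between -1.10 and 0.85 at 48 h, and EMG1, DDX18, DDX21 and NOLC1 reach 3.73 or more.

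Both measured genes of the box C/D particle rose more than 5-fold at 9 h. FBL encodes fibrillarin, the enzyme that methylates the ribose of rRNA. Its log2 value was 8.69, 9.07 and 9.43 (lowest, median and highest) at -22 h, 10.79, 10.98, 11.02 and 11.23 in cows 1, 3, 7 and 8 at 6 h, and 11.77, 11.85 and 11.92 at 9 h. No array of 6, 9 or 12 h overlapped those of -22 h, and the change at 9 h was 2.81 (SE 0.09, 7.03-fold, adjusted p = 2.23e-22, higher in 8 of 8 cows). NOP56, a core protein of the same particle, had gained 1.15 (SE 0.15) by 6 h and 2.42 (SE 0.13, 5.34-fold) by 9 h. At 48 h both genes were lower than at -22 h, FBL by a change of -0.30 (SE 0.09, adjusted p = 0.0149) and NOP56 by one of -0.39 (SE 0.13, adjusted p = 0.0239, lower in 8 of 8 cows). Both calls were lost when every array was centred on its median, with changes of -0.17 (adjusted p = 0.113) for FBL and -0.26 (adjusted p = 0.0828) for NOP56.

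The genes of the 4 proteins of the box H/ACA particle, which also belong to telomerase, rose together and ended together below their starting level. DKC1 is dyskerin, the pseudouridine synthase, and GAR1, NHP2 and NOP10 are its partners. The log2 value of DKC1 was 6.38, 6.81 and 7.18 (lowest, median and highest) at -22 h, 8.98, 9.19 and 9.49 at 9 h and 5.94, 6.18 and 6.42 at 48 h, so that the arrays of 9 h were all above and those of 48 h overlapped only the low end of -22 h. The change of DKC1 was 2.40 (SE 0.11, adjusted p = 8.83e-19) at 9 h and -0.66 (SE 0.11, adjusted p = 4.19e-05, lower in 8 of 8 cows) at 48 h.

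NHP2 rose by 2.39 (SE 0.12), NOP10 by 2.24 (SE 0.18) and GAR1 by 2.06 (SE 0.18) at 9 h. GAR1 was at 2.22 (SE 0.22) at 12 h, while NOP10 was back at 1.27 (SE 0.23). The 48 h changes were -0.67 (SE 0.18) for GAR1, -0.63 (SE 0.12) for NHP2 and -0.55 (SE 0.18) for NOP10, and all 3 passed the threshold. For GAR1 the 48 h array of cow 2 was at 10.0 and those of the other cows at 8.48 to 9.07.

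The 18 measured factors of the small subunit processome, the largest group, had changes at 9 h from 0.82 to 3.46 with a median of 1.68. For the 15 factors of 60S assembly they ran from 1.89 to 4.06 with a median of 2.45. EMG1, which methylates 18S rRNA, had the largest rise of the processome. Its log2 value was 6.07, 6.36 and 7.39 (lowest, median and highest) at -22 h, then 7.54, 7.29, 7.58 and 7.29 in cows 1, 3, 7 and 8 at 3 h, 9.18, 9.15, 9.18 and 9.35 at 6 h and 10.01, 10.26, 9.85 and 10.71 at 12 h. The -22 h value of cow 1, 7.39, overlapped the arrays of 3 h, and from 6 to 12 h the arrays were above all of -22 h. EMG1 rose by 0.95 (SE 0.19) at 3 h and by 3.73 (SE 0.19, 13.3-fold, adjusted p = 8.95e-17, higher in 4 of 4 cows) at 12 h.

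The RNA helicase DDX10 rose by 3.11 (SE 0.17) at 9 h from a low level of 3.00 to 4.12. NAT10, which acetylates 18S rRNA, rose by 2.59 (SE 0.15) at 9 h, and the processome subunit UTP6 by 2.46 (SE 0.25) at 12 h. The brightest processome gene was UTP3, with a change of 1.70 (SE 0.08) at 9 h. At the low end were IMP3 with 0.82 (SE 0.14) and the helicase DDX52 with 0.90 (SE 0.12) at 9 h. IMP3 works with IMP4 and MPHOSPH10 next to the U3 snoRNA, and the changes of those partners at 9 h were 0.96 (SE 0.12) for IMP4 and 2.02 (SE 0.21) for MPHOSPH10.

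NOP14, a processome protein needed for the 40S subunit, was the one gene that fell before it rose. Its log2 value was 6.90, 7.12 and 7.64 (lowest, median and highest) at -22 h. It was 6.76, 6.78, 6.81 and 6.76 in cows 1, 3, 7 and 8 at 3 h, 6.46, 6.46, 6.45 and 6.81 at 6 h, and 8.19, 8.46, 8.42 and 7.98 at 12 h. All arrays of 3 and 6 h lay below those of -22 h, all of 9 and 12 h above them, and all of 48 h, at 6.45 to 6.83, below them again.

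The change of NOP14 was -0.39 (SE 0.12, adjusted p = 0.058) at 3 h, -0.62 (SE 0.12, adjusted p = 9e-05, lower in 4 of 4 cows) at 6 h, 0.97 (SE 0.10) at 9 h, 1.09 (SE 0.12) at 12 h and -0.56 (SE 0.10, adjusted p = 0.000192) at 48 h. A dimmer second probe set of NOP14 shared the late rise and not the falls. There the change was 0.02 (SE 0.23, adjusted p = 0.955) at 6 h, 2.09 (SE 0.18) at 9 h, 2.23 (SE 0.23) at 12 h and 0.48 (SE 0.18, adjusted p = 0.0486) at 48 h. With the mean of both probe sets the fall at 6 h was -0.30 (adjusted p = 0.071).

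**Figure D3:**
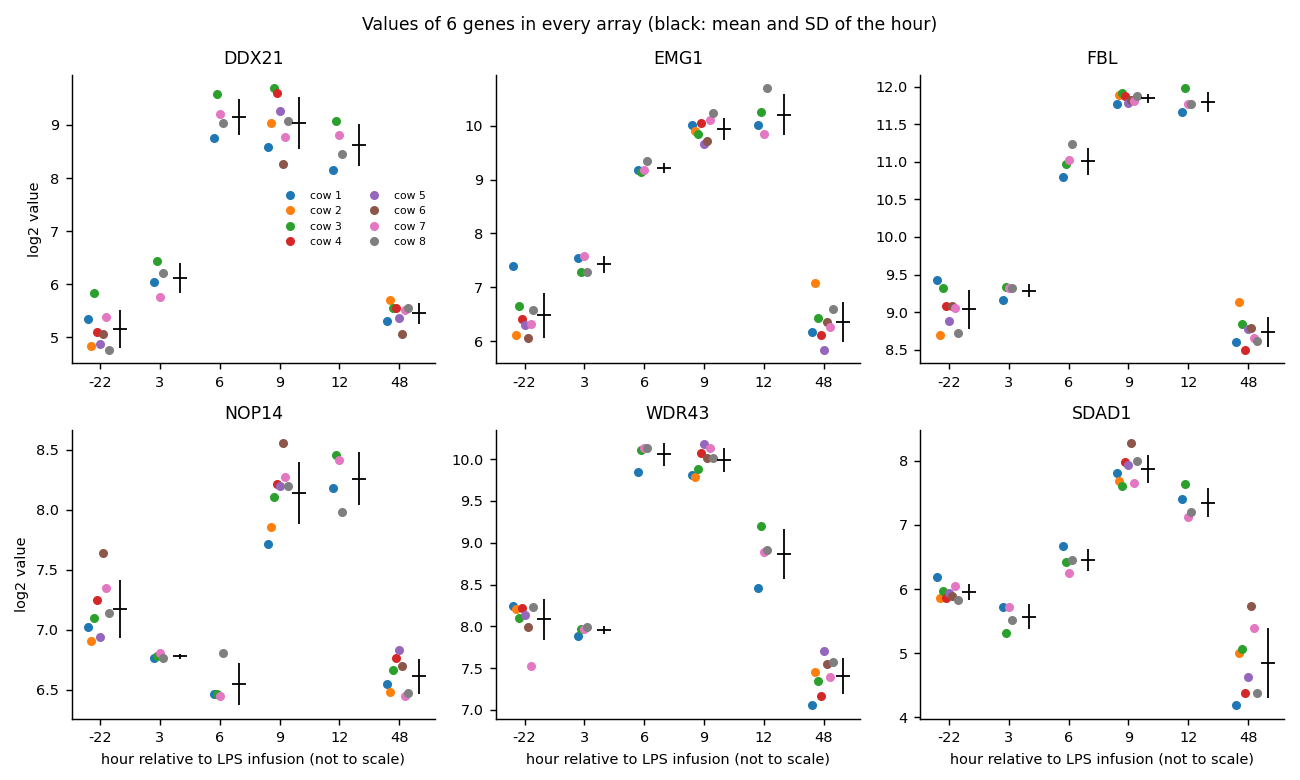
Log2 value (y axis) of 6 genes in every array by hour (x axis, not to scale), coloured by cow, with the mean and SD of each hour in black. DDX21 and EMG1 are above most of their -22 h arrays at 3 h, NOP14 is below its -22 h arrays at 3, 6 and 48 h and above them at 9 and 12 h, WDR43 is highest at 6 and 9 h, and SDAD1 is below its -22 h arrays at 48 h.

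All 6 measured factors of 40S maturation rose at least 2-fold at each of 6, 9 and 12 h, as did 37 of the 48 genes and 7.81% of all genes. TSR1, a GTPase-like protein of the late 40S precursor, rose by 2.99 (SE 0.25) at 6 h and 3.30 (SE 0.20, 9.83-fold) at 9 h from a low level of 3.10 to 4.61 at -22 h. LTV1, which the precursor sheds during its last steps, had log2 values of 5.50, 6.79 and 7.59 (lowest, median and highest) at -22 h and of 9.77, 10.04, 10.01 and 9.93 in cows 1, 3, 7 and 8 at 6 h, with no overlap. The 5.50 of cow 7 stood apart from the other 7 cows, which lay between 6.69 and 7.59.

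LTV1 rose by 3.08 (SE 0.23, adjusted p = 6.85e-13) at 6 h and was at 2.19 (SE 0.23) at 12 h. RRP12, which helps export both subunits, rose by 2.38 (SE 0.11) at 9 h. The kinase RIOK2, the brightest of the group, was at 1.79 (SE 0.11) at 6 h and 1.80 (SE 0.09) at 9 h, and NOB1, the nuclease that makes the final end of 18S rRNA, at 1.16 (SE 0.11) and 1.98 (SE 0.09). BYSL rose by 2.05 (SE 0.13) at 6 h and was at 1.13 (SE 0.13) at 12 h.

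All 15 measured factors of 60S assembly rose at 6, 9 and 12 h. DDX18, an RNA helicase, had the largest change of all 48 genes at 9 h. Its log2 value was 4.56, 5.58 and 6.80 (lowest, median and highest) at -22 h, 9.26, 9.87, 9.85 and 9.48 in cows 1, 3, 7 and 8 at 6 h and 9.19, 9.67 and 10.50 at 9 h. The arrays of 6 and 9 h were thus more than 2 log2 units above the highest of -22 h, and the change at 9 h was 4.06 (SE 0.23, 16.7-fold, adjusted p = 3.68e-16, higher in 8 of 8 cows).

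GNL3, the nucleolar GTPase nucleostemin, rose by 3.56 (SE 0.20, 11.8-fold) and NOP2, which methylates a cytosine of 28S rRNA, by 3.54 (SE 0.12, 11.7-fold) at 9 h. PPAN and MRTO4 rose by 3.16 (SE 0.23) and 3.02 (SE 0.18) at 9 h. The brightest gene of the group, NOP16, rose by 2.65 (SE 0.07), and its 9 h arrays lay between 11.40 and 11.75 against 8.68 to 9.04 at -22 h. At the low end of the group at 9 h were EBNA1BP2 with 1.89 (SE 0.11) and SDAD1 with 1.92 (SE 0.15).

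The 3 measured genes of nucleolar scaffold and helicase proteins include both the brightest and some of the most changed genes. NCL, nucleolin, a major protein of the nucleolus, was the brightest of the 48, with log2 values of 11.13, 11.58 and 11.76 (lowest, median and highest) at -22 h and 13.39, 13.55 and 13.71 at 9 h, a change of 2.05 (SE 0.08, 4.15-fold, adjusted p = 4.71e-20). DDX21, a helicase of rRNA transcription and processing, had log2 values of 4.76, 5.08 and 5.83 at -22 h. In cows 1, 3, 7 and 8 it was at 6.04, 6.43, 5.76 and 6.21 at 3 h and at 8.76, 9.58, 9.21 and 9.03 at 6 h. At 3 h a single array, that of cow 7, lay within the range of -22 h, and at 6 h none did.

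DDX21 rose by 0.96 (SE 0.22) at 3 h and by 4.00 (SE 0.22, 16.0-fold, adjusted p = 8.54e-16) at 6 h. NOLC1, which accompanies snoRNPs in the nucleolus, rose by 0.79 (SE 0.21) at 3 h and by 3.79 (SE 0.17, 13.8-fold) at 9 h. None of NCL, DDX21 and NOLC1 passed the threshold at 48 h, where their changes were -0.12 (SE 0.08), 0.30 (SE 0.18) and -0.04 (SE 0.17).

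The first hour past the threshold was 3 h for DDX21, NOLC1 and EMG1, 6 h for 43 genes and 9 h for IMP4 and TBL3. Of the 43, 42 rose, beside 21.9% of all genes with a rise first called at 6 h, and NOP14 fell. The adjusted p at 3 h was 0.00423 for DDX21, 0.019 for NOLC1 and 0.00115 for EMG1, each higher in 4 of 4 cows. The calls at 3 h depended on single cows and arrays: of the 48 genes 1 rose without cow 8, 5 rose without cow 3, 2 rose without cow 7, 9 rose without the -22 h array of cow 1 and none rose among the 4 cows with all hours alone. Between 3 and 6 h, 45 genes rose and none fell (28.7% of all genes rose), with a median difference of 1.67. IMP4 was at 0.19 (SE 0.15) and TBL3, a processome subunit, at 0.38 (SE 0.16) at 6 h, and they were at 0.96 (SE 0.12) and 1.39 (SE 0.13) at 9 h.

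Past 6 h the genes separated. At 9 h 25 genes were higher than at 6 h (19.8% of all genes) and none lower (13.4% of all genes), with a median difference of 0.45. At 12 h 24 were lower than at 9 h (10.5% of all genes) and 1, IMP4, was higher (16.3% of all genes), with a median of -0.49. The largest change fell at 9 h for 37 genes, beside 28.7% of the 4228 genes whose largest change was a called rise, at 6 h for BYSL, LTV1, DDX21 and WDR43, and at 12 h for GAR1, EMG1, IMP4, NOP14, TBL3, UTP6 and WDR46. In the 4 cows with all hours these numbers were also 4, 37 and 7. For the 23 genes with no called difference between 6 and 9 h the order of these hours is not resolved by their spread. Of the 7 genes with the largest change at 12 h only IMP4 was called higher there than at 9 h. For the others the order of 9 and 12 h is not resolved either.

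A comparison of 12 h with 6 h, made in the same 4 cows and added after the hourly values had been seen, put 20 genes higher at 12 h (26.2% of all genes) and 13 lower (15.6% of all genes). Of the higher genes NOP14 differed by 1.72 (SE 0.14), IMP4 by 1.27 (SE 0.18), GAR1 by 1.16 (SE 0.26), NOC2L, of 60S assembly, by 1.13 (SE 0.17), WDR46 by 1.13 (SE 0.18) and TBL3 by 1.05 (SE 0.19). Of the lower genes WDR43 differed by -1.19 (SE 0.14), BRIX1, a factor of 60S assembly, by -1.11 (SE 0.18), NOP2 by -0.98 (SE 0.18), BYSL by -0.92 (SE 0.15) and MPHOSPH10 by -0.90 (SE 0.29). By role, 2 of 2 box C/D and 3 of 4 box H/ACA genes were higher at 12 h, and NOP10 was lower. None of the 6 factors of 40S maturation was higher and 3 were lower, and the processome (8 higher, 5 lower of 18) and 60S assembly (6 higher, 3 lower of 15) held both.

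**Figure D4:**
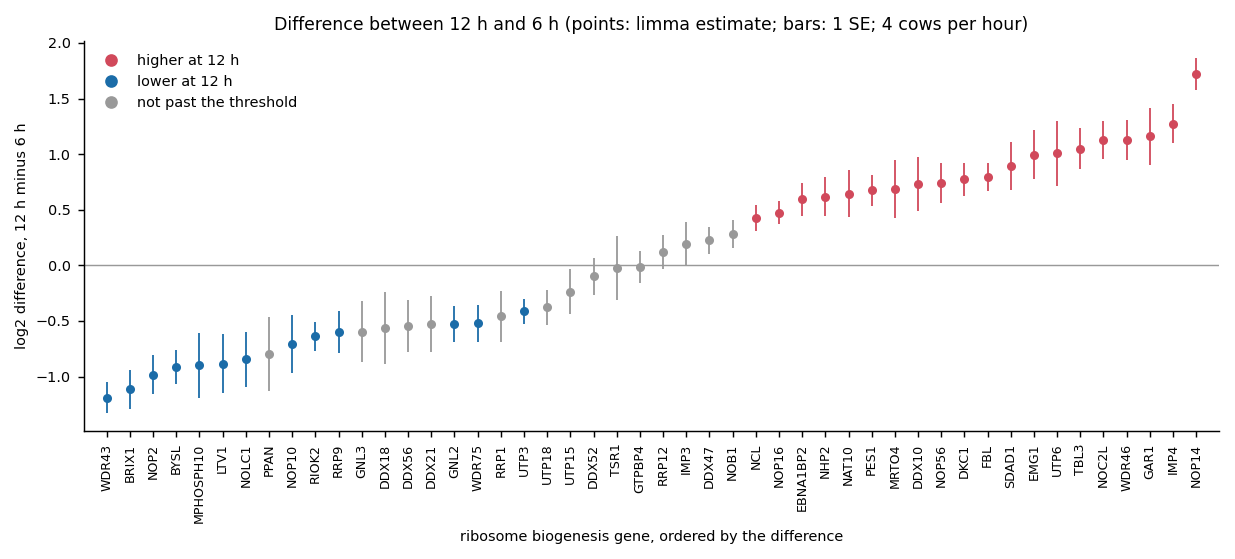
Difference of the log2 value between 12 h and 6 h (y axis, 1 point per gene with 1 SE) for the 48 genes in order of the difference, in red and blue where it passed the threshold. The points run from -1.19 for WDR43 to 1.72 for NOP14, with 20 red, 13 blue and 15 grey.

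Processome subunits with the same kind of repeat domain did not share 1 course. WDR43 had log2 values of 9.85, 10.11, 10.14 and 10.13 in cows 1, 3, 7 and 8 at 6 h and of 8.46, 9.20, 8.89 and 8.92 at 12 h, against 7.53 to 8.25 at -22 h. WDR46 had 7.83, 7.60, 7.62 and 8.00 at 6 h and 9.12, 8.92, 8.36 and 9.16 at 12 h, against 6.50 to 7.68 at -22 h. Each of the 4 cows was lower at 12 h than at 6 h for WDR43 and higher for WDR46. At 6 h WDR43 had 104% of its 9 h change and WDR46 had 47.3%, while SDAD1, of 60S assembly, had 25.9% and IMP4 20.1%. A dimmer second probe set of SDAD1 had 50.8%, so the share for SDAD1 depends on the probe set.

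By 48 h the rise was gone: all 48 genes were lower than at 12 h (32.4% of all genes), with a median difference of -2.26. Against -22 h, 25 genes were lower (16.2% of all genes) and 1, DDX18, was higher (15% of all genes), and the mean of 42 of the 48 was below that of -22 h. Of the genes that had risen at any of 3 to 12 h, these 25 of 48 stand beside 15.8% of 4174 genes. The median change was -0.30, and 0.00 over all genes.

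The size of this undershoot depends on the scaling. The brighter probe sets, those with a mean of at least 5, had a lower median on the 48 h arrays, and centring every array on that median moved changes at 48 h by 0.132 and those at other hours by at most 0.0305 in size. After centring 19 genes were lower (10.3% of all genes) and 4 higher (34.7% of all genes), with a median of -0.16, and the 19 were all among the 25. The 3' minus 5' signal of GAPDH, a measure of RNA quality, was 0.22 ± 0.20 (SD, n = 8) at -22 h and -0.22 ± 0.10 (n = 8) at 48 h. Its mean was -0.02, -0.09, -0.08 and -0.24 at 3, 6, 9 and 12 h. The same signal of actin was 2.12 ± 0.78 (n = 8) at -22 h and 1.95 ± 1.19 (n = 8) at 48 h. Its 48 h arrays ran from 0.40 to 3.05. The part of RNA quality in the result was not tested.

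**Figure D5:**
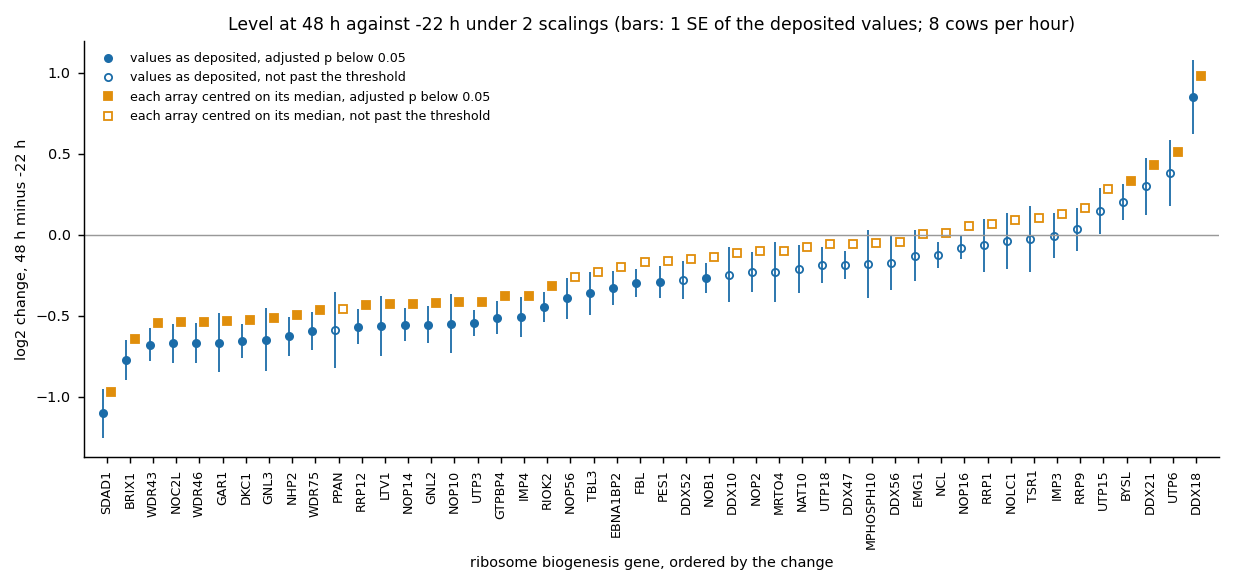
Log2 change at 48 h against -22 h (y axis) for the 48 genes in order of the change, from values as deposited (blue circles, with 1 SE) and after centring each array on its median (orange squares); filled marks passed the threshold. Blue points run from -1.10 for SDAD1 to 0.85 for DDX18, with 25 filled below 0, and 19 of the orange marks below 0 are filled.

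SDAD1 had the largest fall at 48 h. Its log2 value was 5.83, 5.92 and 6.19 (lowest, median and highest) at -22 h and 4.19, 4.82 and 5.74 at 48 h, with no overlap, and the change was -1.10 (SE 0.15, adjusted p = 4.88e-06, lower in 8 of 8 cows). A dimmer second probe set of SDAD1 was at 0.01 at 48 h. In 5 genes every array of 48 h lay below every array of -22 h, beside 2.56% of all genes: SDAD1, BRIX1 with -0.77 (SE 0.12), NOC2L with -0.67 (SE 0.12), WDR46 with -0.67 (SE 0.12) and NOP14, whose second probe set went the other way. A second probe set of WDR46, at a mean of 5.12 at -22 h and 7.83 at 12 h, was at 0.08 (SE 0.21, adjusted p = 0.802) at 48 h, so that the other probe sets of SDAD1, WDR46 and NOP14 did not share the fall.

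By role the genes lower at 48 h were 2 of 2 for box C/D, 4 of 4 for box H/ACA, 7 of 18 for the processome, 4 of 6 for 40S maturation, 8 of 15 for 60S assembly and 0 of 3 for the scaffold proteins, beside the 16.2% of all genes given above. After centring the numbers were 0, 4, 6, 3, 6 and 0 in the same order, beside 10.3% of all genes, so that box C/D went from all to none and box H/ACA kept all 4. WDR43 with -0.68 (SE 0.10) had the largest fall of the processome and RRP12 with -0.57 (SE 0.11) that of 40S maturation. DDX18 went from 4.56, 5.58 and 6.80 (lowest, median and highest) at -22 h to 6.21, 6.57 and 6.98 at 48 h, with overlap and a change of 0.85 (SE 0.23, adjusted p = 0.00833, higher in 6 of 8 cows), and this call was lost without cow 2 and among the 4 cows with all hours.

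Most of the 21 probe sets that were not the brightest of their gene shared the rise, and few were called at 48 h. Of these 15 rose at 6 h, 20 at 9 h and 15 at 12 h, and none fell at those hours. Over all genes, each read through its brightest probe set, 26%, 36.6% and 30.9% rose at these hours. Some of the called rises were very small and near the lower end of the scale. At 9 h the second probe sets of DDX18 and NOP56, with means of 2.40 and 1.94 over all arrays, rose by 0.05 and 0.03. A probe set at such a level can show little of a fall at 48 h. At 48 h 2 of the 21 fell, for EBNA1BP2 and WDR43, and 3 rose, for NOP14, NOP56 and WDR46. Over all genes 16.2% fell and 15% rose, so these 2 counts are near the shares of all genes. Of the 25 genes lower at 48 h 16 had 1 probe set, and of the 9 with several 2 had another that fell. Where a gene had several probe sets the sizes could differ: RRP9, which binds the U3 snoRNA, rose by 1.15 (SE 0.16) at 6 h on its brightest probe set and by 4.21 (SE 0.22) on another that started at a mean of 2.40. NOP56 and WDR46 have a probe set near the lower end of the scale that rose by 0.03 and 0.04 at 48 h while the brightest fell.

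Other genes of the same pathway moved mostly the same way at 9 h, where 36.6% of all genes rose and 28.4% fell. Of 28 other processome and 40S factors 24 rose and 2 fell at 9 h, with a median of 1.65 and NOL6 (3.71, SE 0.12) and UTP4 (3.16, SE 0.17) in the lead. The 2 that fell, named after their values were seen, were HEATR1 (-2.02, SE 0.09) and RCL1 (-1.14). The call for HEATR1 rests on the choice of its brightest probe set, since its other 2 probe sets rose by 2.46 and 1.67, and its direction is therefore uncertain. Of 36 other 60S factors 31 rose and 1, DDX31 (-0.61), fell, with RSL1D1 at 2.97 (SE 0.13) and SURF6 at 2.77 (SE 0.17). Of 19 nucleases of rRNA processing 16 rose and 1, POP7 (-0.94), fell, with ISG20L2 at 2.65 (SE 0.13) and XRN2 at 2.56 (SE 0.15).

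Of 13 genes for subunits and factors of RNA polymerase I, which makes the precursor, 11 were higher and none lower at 9 h. Their median was 1.42, with POLR1C at 2.61 (SE 0.11) and POLR1F at 2.42 (SE 0.19). The rise at 6 h was less uniform in these lists than in the 48 genes. At 6 h 21 of the 28 rose and 3 fell, and 27 of the 36 rose and 3 fell. Of the 19 nucleases 13 rose and 3 fell, and of the 13 polymerase genes 9 rose and 0 fell. Over all genes 26% rose and 29.3% fell at 6 h. At 48 h the numbers of higher and lower genes were 2 and 10 of the 28, 0 and 12 of the 36, 0 and 5 of the 19 and 1 and 4 of the 13. Over all genes 15% were higher and 16.2% lower at 48 h. These lists were not counted after centring, on which the calls of the 48 genes at 48 h depended. MYC, a transcription factor known to act on ribosome genes, changed by 6.04 (SE 0.41) at 3 h, 5.79 (SE 0.41) at 6 h, 4.79 (SE 0.33) at 9 h, 3.26 (SE 0.41) at 12 h and -1.65 (SE 0.33) at 48 h.

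The genes of the ribosomal proteins themselves, the product that these factors assemble, moved later and less. Of 63 cytosolic ribosomal protein genes none passed the threshold at 3 h, 27 rose and 1, RPS28, fell at 6 h, 55 rose at 9 h and 58 at 12 h, with medians of 0.05, 0.14, 0.40 and 0.63. At 12 h 57 of them were higher than at 6 h and none lower, and 38 were higher than at 9 h and none lower, where 24 of the 48 biogenesis genes were lower. At 48 h 21 were higher and 13 lower than at -22 h, with a median of 0.05, beside 15% and 16.2% of all genes. Their mean log2 value lay between 13.2 and 13.9, near the upper end of the scale, where the array may not show the full size of a rise. Of 15 markers of proliferating cells 1, AURKB (0.04), rose and 1, TYMS (-1.93), fell at 9 h, and 11 of them had a mean under 5 at every hour.

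The cows also allowed a comparison by number of earlier biopsies. The 4 cows with biopsies at 3, 6 and 12 h and the 4 without had median changes over the 48 genes of 2.15 and 2.35 at 9 h and of -0.45 and -0.25 at 48 h. In limma on the differences within each cow, no gene of the 48 passed the threshold at 9 h or 48 h, with 2 (4.17%) and 7 (14.6%) at an unadjusted p below 0.05. Over all 24128 probe sets none passed either, with 936 (3.88%) and 544 (2.25%) at an unadjusted p below 0.05. The difference was mostly of 1 sign: the change was lower in the cows with all biopsies for 40 of the 48 genes at 9 h (41.4% of all genes) and for 39 at 48 h (41.6% of all genes), the 7 genes among them. These genes come from the same cows and are not independent. Each change also includes the cow's -22 h array. There the mean of the 48 genes was 7.49, 7.32, 6.91 and 7.10 in the cows with all biopsies. In the others it was 7.05, 6.99, 7.06 and 7.17. At 9 h it was 9.30, 9.43, 9.37 and 9.55 against 9.49, 9.54, 9.41 and 9.35. The part of the -22 h level in the difference was not tested. With 4 cows against 4 this comparison does not show that earlier biopsies made no difference.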

How the data were processed

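Liver RNA was labelled from oligo-dT and hybridised to the Affymetrix Bovine Genome Array, 1 colour and 1 biopsy per array. The authors made the deposited log2 values with GCRMA, which corrects background, normalizes by quantiles and gives 1 value per probe set and array, and these were used as deposited. The number of arrays and the spread between cows limit the precision.

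Of 24128 probe sets 13292 name 1 gene in the annotation, 86 name several and 10724 are not in it. Arrays were grouped by hour from the labels. limma 3.58.1 in R 4.3.3 was fitted to all 36 arrays with a mean for each hour, no cow term and empirical Bayes variances and Benjamini-Hochberg adjustment over all probe sets within a comparison. The scripts were tested on simulated data. Figures were drawn in Python 3.11.15 with matplotlib 3.10.9.

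Genes named were, in each role, up to 4 with the largest change and one direction in every cow, the brightest, the largest fall at 48 h, genes that fell at 3 to 12 h and genes whose probe sets opposed each other. Other members were named with their change, and MYC and up to 2 genes of other lists. Exceptions named from other lists were chosen after their values were seen. The members and lists were chosen with earlier results of these data known.

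Cow numbers name the same animal throughout, and so pair the arrays. After the hourly mean was taken off, the -22 and 48 h arrays of one animal correlated at 0.316 (mean; range 0.116 to 0.505) and those of different animals at -0.0446. Alternatives were the cow as a fixed or random replicate block, leaving out every animal in turn, keeping the 4 cows sampled at all hours, median centring, dropping dim probe sets (fewer than 4 arrays at 5 or more), array weights, another variance prior, Bonferroni adjustment, a change of at least 2-fold, averaging the probe sets of each gene and, added after seeing the data, 3 arrays left out. The 3 arrays were the -22 h arrays of cows 1 and 7 and the 48 h array of cow 2. Raw array files were not used here, and promoter or protein sequences were not analysed here.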

Additional observations from a re-analysis of the deposited data

Results flagged for a closer look

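Single arrays that stood apart from the others of their hour were sought for the mean of the 48 genes and for 28 named genes, 174 sets of values in all. In 18 of these the gap of 1 array to its neighbour was too wide for its hour by Dixon's test, where chance gives about 1 in 20. The sets come from the same 36 arrays and from genes that moved together, so they are not independent. The 18 are therefore no test against chance. The mean of the 48 genes had no such array.

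The 48 h array of cow 2 stood apart for 6 genes. It was high for GNL3 (8.79 against 6.78 to 7.54), GAR1 (10.0 against 8.48 to 9.07), NOLC1 (6.38 against 4.99 to 5.40), NOP2 (7.40 against 6.43 to 6.70) and NCL (11.75 against 11.22 to 11.44), and low for BYSL (4.67 against 4.83 to 4.91). Without this array 26 of the 48 genes were lower at 48 h.

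At -22 h cow 7 was low for LTV1 (5.50 against 6.69 to 7.59) and WDR43 (7.53 against 7.99 to 8.25), and cow 1 was high for EMG1 (7.39 against 6.07 to 6.66). At 3 h cow 1 was low for FBL (9.15 against 9.32 to 9.34) and cow 3 for NHP2 (8.95 against 9.32 to 9.40). At 6 h cow 8 was high for EMG1 (9.35 against 9.15 to 9.18) and NOP14 (6.81 against 6.45 to 6.46), and cow 1 was low for WDR43 (9.85 against 10.10 to 10.14). The 9 h array of cow 8 was high for NAT10 (9.78 against 9.20 to 9.36) and the 12 h array of cow 3 for UTP6 (10.93 against 10.20 to 10.28). At 48 h cow 4 was low for NHP2 (7.61 against 8.26 to 8.75) and cow 7 for TSR1 (2.79 against 3.79 to 4.13).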

How the results depend on the processing

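The numbers of the 48 genes that rose at 6, 9 and 12 h stayed within 1.5 times their value under every alternative. So did the number first past the threshold at 6 h, which counts both directions and so includes NOP14. The same held for the numbers higher at 6 h than at 3 h and lower at 48 h than at 12 h. With each cow left out they were 43 to 46 at 6 h, 48 at 9 h, 46 to 48 at 12 h, 41 to 44 with onset at 6 h, 44 to 45 for 6 h over 3 h and 47 to 48 for 48 h under 12 h. With the cow as a fixed replicate block 3, 45, 48 and 48 genes rose at 3, 6, 9 and 12 h and 26 were lower at 48 h, and with a random block 27 were lower.

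The 3 genes higher at 3 h became 1 to 5 with a cow left out, 0 with the 4 cows with all hours, 5 with the dim filter, 14 with array weights, 0 with Bonferroni adjustment and 0 at 2-fold or more. They became 9 without the -22 h array of cow 1. Without that array, the -22 h array of cow 7 and the 48 h array of cow 2 they became 11, and 10 without these 3 arrays after centring. Other arrays flagged above by Dixon's test were kept. The 25 lower at 48 h became 5 with Bonferroni adjustment and 1 at 2-fold or more, and were 17 to 26 with a cow left out (17 without cow 1) and 17 with the 4 cows with all hours. The 1 higher at 48 h became 0 to 1 with a cow left out, 0 with the 4 cows with all hours, 0 with Bonferroni adjustment, 0 at 2-fold or more, 4 after centring, 3 after centring without the 3 arrays and 4 after centring with the block. The 24 lower at 12 h than at 9 h became 6 with Bonferroni adjustment and 5 at 2-fold or more, and 16 to 24 with a cow left out. The comparison of cows with and without all biopsies gave 0 genes in each alternative run, which says nothing on its stability, since with 4 cows against 4 none of the 24128 probe sets was called. For the 28 named genes the largest change kept its direction and call in all 644 refits. Most of these genes were chosen in these same data for a large change with one direction in every cow. Such a choice favours a stable call, so the refits are no independent support. The 16 called changes at 48 h kept their direction in all 368 refits and lost the call in 44.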
